A study of Mus musculus with 8 samples.

Results

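The 10 germ cell genes Dppa3, Dppa5a, Rhox6, Rhox9, Nanog, Utf1, Tfap2c, Ddx4, Dazl and Nanos3 were followed through hematopoietic clusters and endothelium of the E11.5 mouse embryo. They are 10 of the 24015 genes counted, and they were selected on their read counts in 1 library, wild type clusters replicate 1, and then taken by gene symbol. Their levels in that library are therefore given as a description, and no test of a comparison with it is given for them. Folds and orderings that include that library are likewise description only, since the genes were chosen on its counts. RNA-Seq was performed on 8 libraries of 100 sorted cells from the AGM (aorta, gonad and mesonephros region) together with the vitelline and umbilical arteries (VU). The sort gate was Ter119- VE-Cadherin+ for both cell types, with Kit+ for cluster cells and with Kit- CD41- CD45- for endothelium. Embryos were either wild type or Sl/Sl, which are homozygous for the Steel deletion that removes Kitl from every cell of the embryo, so that there were 4 groups with 2 replicates each. All mice were on a C57BL/6 background and were untreated. Cells were sorted from pools of 1 to 4 embryos sharing a genotype, so that a pool could be 1 embryo. The replicates are described as biological and the cells as coming from 2 sorting experiments, but which library came from which sort or embryos is not given in the sources used here.

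Primordial germ cells migrate through the hindgut and its mesentery and settle in the genital ridges, which lie in the AGM region beside the mesonephros. They carry the receptor Kit on their surface, as hematopoietic cluster cells do, and need Kit ligand to survive and migrate, so that Sl/Sl embryos have very few germ cells. Early germ cells keep a pluripotency-related program, to which Dppa3, Dppa5a, Nanog and Utf1 belong, and on reaching the gonad they switch on RNA-binding proteins such as Ddx4 and Dazl.

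Total counts ran from 8933236 to 13428214 per library, and between 12844 and 14309 genes had at least 1 count. Expression is given below as counts, as CPM (the usual depth-scaled count, on totals scaled with TMM factors) or as RPKM (counts per kilobase of exon, scaled by the total count as CPM is but without TMM factors), and levels of different genes are compared only in RPKM. Ptprc, which encodes the leukocyte antigen CD45, had 1294 to 3908 counts in the 4 cluster libraries and 6 to 16 in the 4 endothelial libraries. Kit, the receptor used for the sort, had 2937 to 4392 counts in clusters and 538 to 1065 in endothelium. Cdh5, which encodes VE-Cadherin, had 154 to 2531 counts in clusters and 4480 to 8240 in endothelium, with the lowest count in wild type clusters replicate 2. Itga2b, which encodes CD41, had 109 to 271 counts in clusters and 44 to 109 in endothelium, which was sorted as CD41-. Its counts met at 109 in Sl/Sl clusters replicate 1 and Sl/Sl endothelium replicate 1, so that it did not fully separate the cell types. Endothelial Kitl counts were 1250 and 923 with the wild type gene and 6 and 2 with the deletion. In clusters they were 110 and 0 for wild type against 1 and 3, so that Kitl gave no check of the genotype of wild type clusters replicate 2.

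Promoters of 3 of the genes are shown because they stand for 3 different patterns over the libraries: Dppa3 was detected in 1 library, Ddx4 mainly in clusters and Nanos3 in all 8 libraries. Each sequence runs from 250 bases before to 50 bases after the first base of the gene in the deposited table, on the strand of the gene, in the NCBIM37 (mm9) genome, with CpG dinucleotides in capitals. Dppa3 lies on the plus strand at chr6:122576192-122576491, Ddx4 on the minus strand at chr13:113442469-113442768 and Nanos3 on the minus strand at chr8:86700402-86700701.
Dppa3: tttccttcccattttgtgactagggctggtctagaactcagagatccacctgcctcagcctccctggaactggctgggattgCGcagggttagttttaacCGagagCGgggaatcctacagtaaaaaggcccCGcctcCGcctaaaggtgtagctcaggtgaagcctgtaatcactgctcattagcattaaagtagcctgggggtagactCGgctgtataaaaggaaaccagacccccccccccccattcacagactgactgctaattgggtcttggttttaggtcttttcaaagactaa
Ddx4: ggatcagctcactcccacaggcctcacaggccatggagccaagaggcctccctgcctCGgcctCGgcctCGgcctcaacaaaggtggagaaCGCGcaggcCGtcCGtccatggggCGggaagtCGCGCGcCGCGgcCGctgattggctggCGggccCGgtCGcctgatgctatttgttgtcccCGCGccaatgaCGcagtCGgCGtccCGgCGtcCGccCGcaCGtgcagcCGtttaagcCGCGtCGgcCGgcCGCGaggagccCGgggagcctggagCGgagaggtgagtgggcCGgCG
Nanos3: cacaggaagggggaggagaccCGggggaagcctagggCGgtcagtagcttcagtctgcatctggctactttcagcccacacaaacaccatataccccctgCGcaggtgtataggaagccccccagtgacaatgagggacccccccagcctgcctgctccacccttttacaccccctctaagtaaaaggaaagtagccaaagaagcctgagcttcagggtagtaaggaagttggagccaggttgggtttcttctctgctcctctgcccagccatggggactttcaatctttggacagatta
The Dppa3 window holds 6 CpG and the Nanos3 window 3, whereas the Ddx4 window holds 38. Over 23894 promoters of the same length the median was 12, with quartiles of 4 and 24. The promoters of Dppa5a, Rhox6, Rhox9, Nanog, Utf1, Tfap2c and Dazl held 11, 16, 12, 4, 17, 27 and 28 CpG, respectively. The 10 genes thus ran from CpG-poor to CpG-rich. An E-box, CACGTG, which reads the same on both strands, was present in 1 of the 10 windows, that of Ddx4, against 7.77% of all promoters. The letters TTTGCAT, part of the octamer bound by POU factors and searched on both strands, was present in that of Nanog, against 4.39% of all promoters. These are matches of letters and were not tested as binding sites.

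Rhox6 and Rhox9 are homeobox genes of the reproductive cluster on the X chromosome, and they are close relatives. Their coding sequences are both 684 bases long and were identical at 90.6% of positions, with a longest identical run of 161 bases. Of the 610 stretches of 75 bases in each coding sequence, 75 bases being the read length, 87 were shared. The 75-base stretch in which they differed most, at coding bases 386 to 460, is shown because reads from it can be told apart, with the 20 bases that differ in capitals. It lies at chrX:35180846-35180920 on the plus strand in Rhox6 and at chrX:35254211-35254285 on the minus strand in Rhox9, in the same build.
Rhox6: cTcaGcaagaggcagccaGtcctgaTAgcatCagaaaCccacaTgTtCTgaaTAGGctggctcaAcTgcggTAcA
Rhox9: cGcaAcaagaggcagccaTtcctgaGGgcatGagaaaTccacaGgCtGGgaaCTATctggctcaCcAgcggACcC
Since the sources used here do not give how reads with several matches were counted, the split of counts between Rhox6 and Rhox9 is uncertain. The same question was asked of each gene against the whole genome. Of the 75-base stretches of Dppa5a, 47.1% were also found elsewhere, and for Rhox9, Rhox6, Dppa3, Tfap2c and Nanog the shares were 13.5%, 11%, 7.53%, 7.28% and 6.09%. For Utf1, Ddx4, Dazl and Nanos3 the share was 0%. None of the 10 genes shares exon bases with another gene of the table.

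Dppa3 (also called Stella) encodes a maternal and germ cell factor that protects DNA methylation in the early embryo. It had 889 counts in wild type clusters replicate 1 and 0 counts in each of the other 7 libraries, among them the second wild type cluster library. Its level in the 1 library that held it was 101 RPKM, above that of Kit in the same library, which was 78.8 RPKM. In wild type clusters replicate 2 a count of 0 allows up to 3 counts, or 0.233 CPM, so that Dppa3 was at least 328-fold higher in replicate 1 than in replicate 2. In a pool of 100 cells, fewer cells of a type and less RNA per cell cannot be told apart.

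Dppa5a encodes a KH-domain protein of pluripotent and early germ cells. It had 3190 counts in wild type clusters replicate 1, 0 in replicate 2, 3 and 0 in Sl/Sl clusters, 0 and 1 in wild type endothelium, with 0 and 8 in Sl/Sl endothelium. It had the highest level of the 10 genes, at 464 RPKM, although many of its stretches have copies elsewhere in the genome. The 2 replicates of wild type clusters lay at least 1178-fold apart, and the other 3 groups overlapped with one another at 0 to 8 counts.

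Rhox6 had 255 counts in wild type clusters replicate 1 and 0 counts in the other 7 libraries. Rhox9 had 410 counts in the same library, 1 count in wild type endothelium replicate 2 and 0 in the other 6. Their levels were 27.4 and 43.2 RPKM, at least 94.1-fold and 151-fold above the limit of wild type clusters replicate 2. The 28 other Rhox genes in the table were close to absent, with 20 counts in all in wild type clusters replicate 1 and 0 to 4 in each other library. The highest of them were Rhox2a with 11 counts and Rhox4a with 9 counts in wild type clusters replicate 1.

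Nanog, a homeodomain factor of pluripotent cells and early germ cells, was detected in all 8 libraries. It had 219 and 19 counts in wild type clusters, 5 and 8 in Sl/Sl clusters, 2 and 7 in wild type endothelium, with 6 and 4 in Sl/Sl endothelium. Both wild type cluster libraries were above the other 6, but replicate 2 lay far closer to those than to replicate 1. Its stretches have copies on several chromosomes, and the part of these in its low counts was not tested. Utf1, a chromatin-associated factor of pluripotent cells, had 77 counts in wild type clusters replicate 1 and 0 counts elsewhere. Tfap2c, an AP-2 factor needed to specify germ cells and also used in trophoblast, had 94 counts in that library and 0 counts elsewhere. The levels of Nanog, Utf1 and Tfap2c there were 9.08, 6.17 and 2.85 RPKM, which was below Dppa3, Dppa5a and both Rhox genes.

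Ddx4 (Vasa) encodes an RNA helicase that rises in germ cells as they reach the gonad. It had 29 and 187 counts in wild type clusters, 4 and 83 in Sl/Sl clusters, 0 and 0 in wild type endothelium, with 1 and 0 in Sl/Sl endothelium. Every cluster library was above every endothelial library, while the genotypes overlapped in clusters. Sl/Sl clusters replicate 1, at 4 counts, lay close to the limit of 3 counts. The share of all genes that separate the cell types in this way was not counted. Unlike the genes above, it was highest in wild type clusters replicate 2, which held 61.5% of its 304 counts, and second highest in Sl/Sl clusters replicate 2. The group levels were 3.09 ± 3.03 RPKM in wild type clusters and 1.14 ± 1.45 RPKM in Sl/Sl clusters (SD, n = 2 each), so that the spread within a group was as large as its mean. In wild type, Ddx4 was at least 31.5-fold higher in clusters than in endothelium, against a limit of 3 counts per library, and at least 9.23-fold with replicate 1 of the clusters alone.

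Dazl, an RNA-binding protein that licenses germ cells for sexual differentiation, was low throughout. It had 24 and 1 counts in wild type clusters, 1 and 0 in Sl/Sl clusters, 0 and 5 in wild type endothelium and 0 in both Sl/Sl endothelial libraries. Wild type clusters replicate 1 was again the highest, at 0.753 RPKM. Replicate 2 of that group, with 1 count, lay within the 0 to 5 counts of the other groups. Nanos3, an RNA-binding protein that protects early germ cells from cell death, was the 1 gene of the 10 with more than 5 counts in every library. It had 23 and 37 counts in wild type clusters, 47 and 82 in Sl/Sl clusters, 163 and 55 in wild type endothelium, with 60 and 6 in Sl/Sl endothelium. The highest library was an endothelial one, wild type endothelium replicate 1 with 17.4 RPKM, and wild type clusters replicate 1 was the second lowest. Its group levels were 3.48 ± 0.782 and 6.87 ± 2.12 RPKM in wild type and Sl/Sl clusters, and 12.3 ± 7.23 and 3.91 ± 4.23 RPKM in wild type and Sl/Sl endothelium (SD, n = 2 each). In clusters both Sl/Sl libraries were above both wild type libraries, and in endothelium the genotypes overlapped. The share of all genes with such an order in clusters was not counted, so nothing is read from it.

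**Figure D1:**
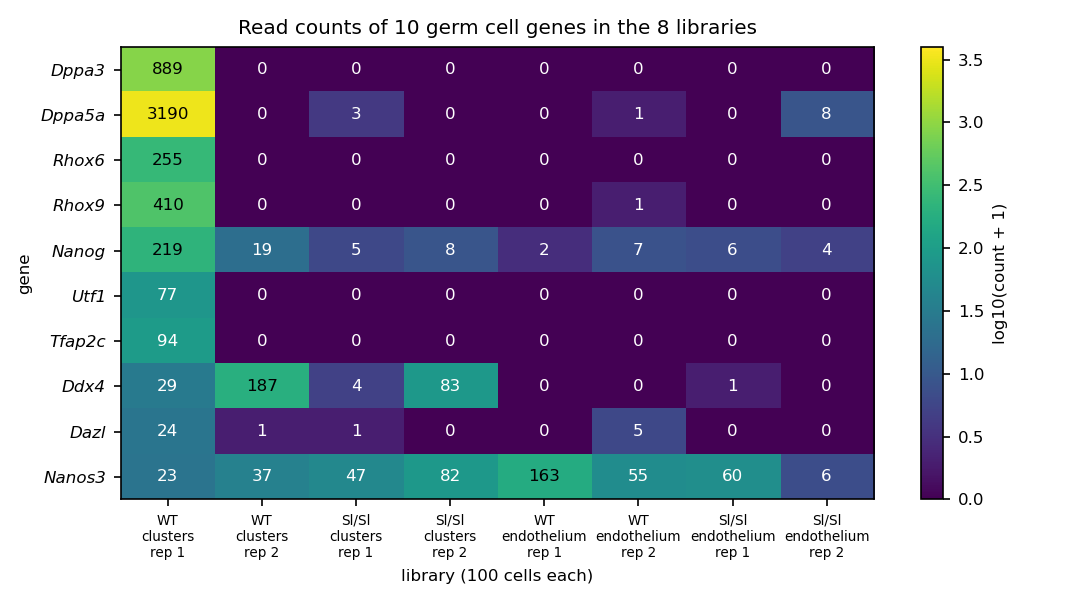
Read counts of the 10 genes (rows) in the 8 libraries (columns), with the count printed in each cell and the colour giving log10(count + 1). Wild type clusters replicate 1 holds the highest count of 8 of the 10 genes, whereas Ddx4 is highest at 187 in wild type clusters replicate 2 and Nanos3 at 163 in wild type endothelium replicate 1.

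Added up, the 10 genes had 5210 counts in wild type clusters replicate 1 and 244 in replicate 2, 60 and 173 in Sl/Sl clusters, 165 and 69 in wild type endothelium, with 67 and 18 in Sl/Sl endothelium. Scaled for depth, this was 449 CPM in wild type clusters replicate 1 against 2.14 to 19.0 CPM in the other 7 libraries. Dppa5a, which has copies of its stretches elsewhere, made up much of this, and without it the sums were 174 CPM against 1.19 to 19.0 CPM. Without Nanos3 the 4 endothelial libraries had 2 to 14 counts of the other 9 genes, and the cluster libraries had 5187, 207, 13 and 91. Of the 10 genes, 7 had at least 50 counts in wild type clusters replicate 1, and 0 to 2 had so in any other library.

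**Figure D2:**
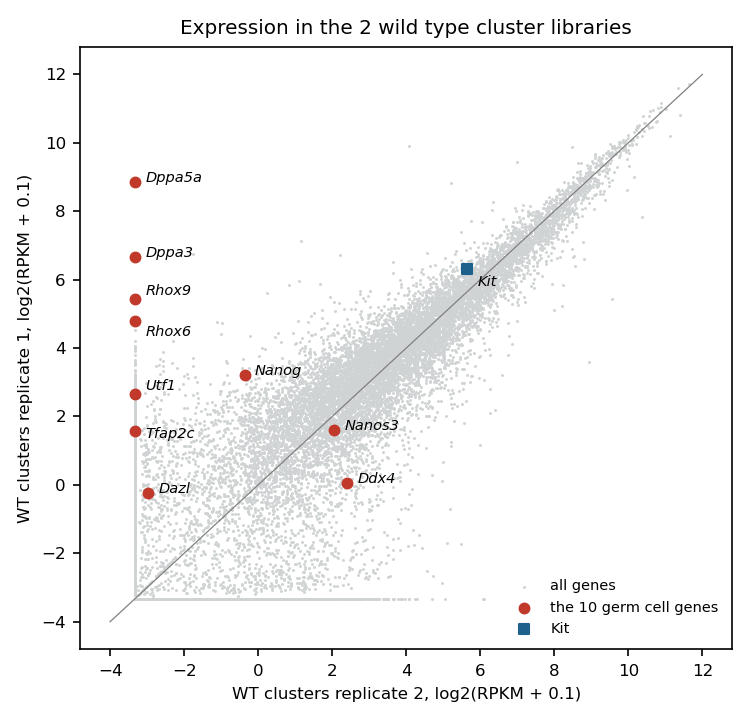
Level of each gene in wild type clusters replicate 1 (vertical axis) against replicate 2 (horizontal axis), both as log2(RPKM + 0.1), with all genes in grey, the 10 germ cell genes in red, Kit as a blue square and the line of equal levels. Dppa5a, Dppa3, Rhox9, Rhox6, Utf1 and Tfap2c stand on the left edge because replicate 2 had 0 counts, while Nanos3 and Ddx4 lie below the line.

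Libraries of 100 cells often held genes that no other library had. Genes with at least 50 counts in 1 library and at most 3 in each of the other 7 numbered 54 in wild type clusters replicate 1, or 0.225% of all genes, and 5 of the 10 germ cell genes were among them. These were Dppa3, Rhox6, Rhox9, Utf1 and Tfap2c, and since they were chosen for their counts in that library, nothing is read from this share. Dppa5a missed the pattern through 8 counts in Sl/Sl endothelium replicate 2. In the other 7 libraries the same pattern took in 7 to 112 genes, most in Sl/Sl clusters replicate 2, and 0 of the 10.

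**Figure D3:**
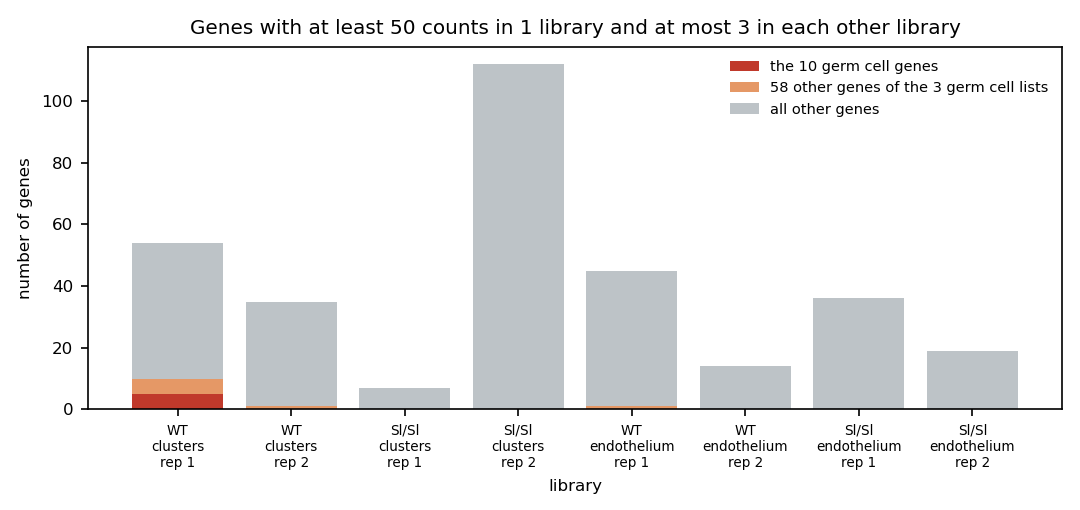
Number of genes with at least 50 counts in the library named and at most 3 counts in each of the other 7, stacked as the 10 germ cell genes, 58 other germ cell genes and all remaining genes. Wild type clusters replicate 1 holds 5 of the first kind and 5 of the second among 54 genes, and Sl/Sl clusters replicate 2 has the tallest bar at 112 genes.

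Germ cell genes outside the 10 were taken from 3 lists of 58 genes in all, of which 15 had 0 counts in every library. The lists were drawn up with the pattern in wild type clusters replicate 1 known. Of the 26 with at least 50 counts in some library, 11 (42.3%) were highest in wild type clusters replicate 1, against 11.8% of the 13478 genes that reached that count. At least 50 counts were reached by 17 of the 58 in that library and by 4 to 9 in each other library. These shares describe the libraries and were not tested.

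Among the 20 genes of specification and pluripotency, 12 reached 50 counts in wild type clusters replicate 1 and 3 to 5 in the others. Summed, the 20 genes had 189 CPM there and 44.9 to 100 CPM in the other cluster libraries. In the endothelial libraries they had 172 to 206 CPM, so that the sum showed no excess over endothelium. Dppa4, a nuclear partner of Dppa2 in pluripotent cells, had 248 counts in wild type clusters replicate 1, 39 in Sl/Sl clusters replicate 1 and 0 elsewhere. Gdf3, a TGF-beta family ligand, had 190 and 57 counts in wild type clusters, 69 and 40 in Sl/Sl clusters and 1 to 5 in endothelium. Cluster and endothelial libraries did not overlap for Gdf3, and the share of all genes for which this holds was not counted. Trim71, Klf4 and Sall4, which are also used outside the germ line, had 304, 276 and 236 counts in wild type clusters replicate 1 but were each higher in at least 1 endothelial library.

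A few genes of the same list were picked out after their values were seen. Sox2, Tcl1 and Tdh had 153, 163 and 167 counts in wild type clusters replicate 1, and outside it Sox2 had 15 counts in wild type endothelium replicate 1, Tcl1 had 0 and Tdh 1. Pou5f1 (Oct4), a defining gene of germ cells at this stage, had 0 counts in all 8 libraries, which in wild type clusters replicate 1 allows up to 0.259 CPM. Of its 75-base stretches, 22.7% were also found elsewhere in the genome, less than for Dppa5a, and whether its reads were lost in counting was not tested. Tdgf1 went another way, with 169 counts in wild type clusters replicate 2, 1 in Sl/Sl clusters replicate 2 and 0 in the other 6 libraries. Prdm14 and Lin28a, also on the list, had only 2 and 4 counts in wild type clusters replicate 1. Prdm1 had 168 counts in that library and 200 to 244 in the endothelial libraries.

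Of the 20 genes of germ cell RNA control and the piRNA pathway, which silences transposons, 5 reached 50 counts in wild type clusters replicate 1 and 0 to 3 in the others. Stk31, a Tudor-domain protein of germ cells, had 237 counts in that library and 0 in the other 7. Mov10l1, the helicase that hands piRNA precursors on, had 58 counts there and 1 in wild type clusters replicate 2. Tdrd5, another Tudor-domain protein, had 92 and 38 counts in wild type clusters and 0 in the other 6 libraries. Ddx25, an RNA helicase of male germ cells, had 111 and 296 counts in wild type clusters, 4 and 279 in Sl/Sl clusters, 117 and 28 in wild type endothelium, with 15 and 3 in Sl/Sl endothelium. As for Ddx4, its highest counts were in the second replicates of both cluster groups. Rnf17 was spread over all 8 libraries at 3 to 144 counts.

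Meiotic and later germ cell genes showed no such excess in wild type clusters replicate 1. Of 18 genes, 0 reached 50 counts there, and 0 to 3 did so in the other libraries. Dmc1, a meiotic recombinase, had 46 counts in it, below the 77 in Sl/Sl clusters replicate 2 and the 115 in wild type endothelium replicate 1. Spo11, which makes meiotic DNA breaks, had 29 to 60 counts in the 4 cluster libraries and 0 in the 4 endothelial libraries. Smc1b, a meiotic cohesin, had 28 counts in wild type clusters replicate 1 and 0 to 6 elsewhere. Rec8, another cohesin of meiosis, was highest at 69 counts in wild type endothelium replicate 2, and Sohlh2 had 3 counts in wild type clusters replicate 1 alone. Stra8, looked up after its values were seen, had 63 counts in wild type endothelium replicate 1 and 0 to 2 elsewhere.

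Of 8 surface genes that germ cells share with other cells, 7 reached 50 counts in both wild type cluster libraries and 5 to 7 in the others. Ifitm1, Ifitm3, Itga6 and Pecam1 were led by 23515, 8245, 3500 and 9764 counts, each in a library other than wild type clusters replicate 1. Alpl, which encodes the alkaline phosphatase used to stain germ cells and was picked out afterwards, had 62 counts in wild type clusters replicate 1 and 0 or 1 in each of the other 7. Kit itself was highest in wild type clusters replicate 1, with 78.8 RPKM against 49.7 in replicate 2 and 46.2 to 47.3 in Sl/Sl clusters.

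The germ cell genes were set beside markers of the other cells that a dissected AGM could hold. Of 12 somatic markers of the gonad and mesonephros, 0 had any count in wild type clusters replicate 1, where they summed to 0 CPM. They summed to 29.1 CPM in wild type clusters replicate 2, to 2.46 and 50.8 CPM in Sl/Sl clusters, to 44.1 and 12.4 CPM in wild type endothelium and to 0.0875 and 0.476 CPM in Sl/Sl endothelium. The 2 cluster libraries with the most Ddx4 were also those with the most of these markers, whereas wild type endothelium replicate 1 had 555 counts of them and 0 of Ddx4. Wt1, Gata4 and Lhx9, picked out as genes of the early gonad, had 70, 213 and 169 counts in Sl/Sl clusters replicate 2 and 0 in wild type clusters replicate 1. Wt1 was higher still in wild type endothelium replicate 1, with 288 counts, and Gata4 had 122 in wild type endothelium replicate 2. Dmrt1, a gonadal factor of both germ and supporting cells, was also looked up afterwards. It had 0 and 90 counts in wild type clusters, 1 and 108 in Sl/Sl clusters and 0 or 1 in each endothelial library, so that it was held, like most of Ddx4, by the second replicates of both cluster groups. The part of these markers in the counts of Ddx4 was not tested.

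**Figure D4:**
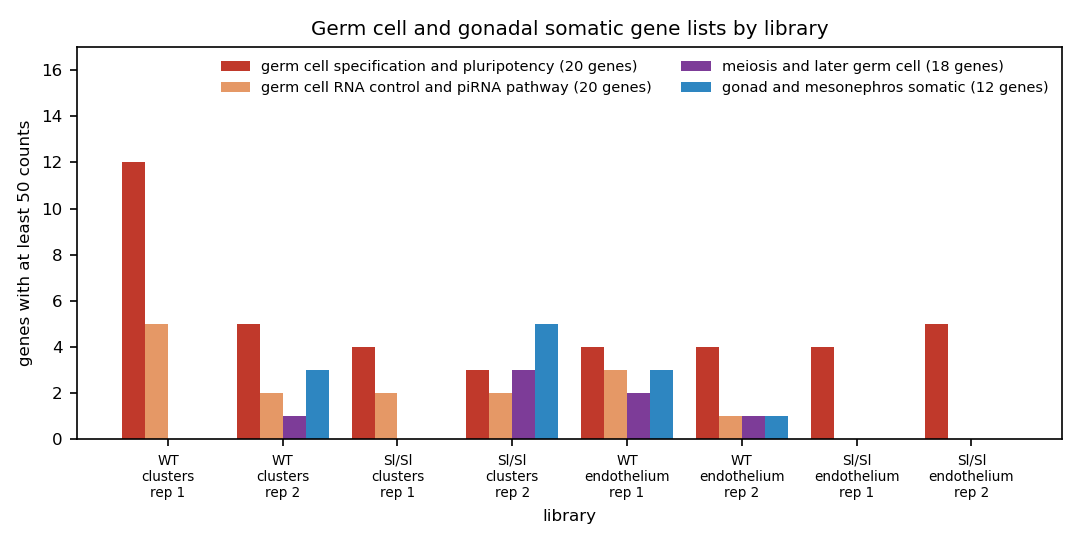
Number of genes with at least 50 counts in each library (vertical axis) for 3 germ cell lists and for somatic markers of the gonad and mesonephros. The specification and pluripotency list reaches 12 of 20 genes in wild type clusters replicate 1 against 3 to 5 elsewhere, and the somatic list is at 0 there and highest, at 5 of 12 genes, in Sl/Sl clusters replicate 2.

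Trophoblast shares Tfap2c and Plac1 with other cells, and 5 of the 10 genes on its list, Tpbpa, Gcm1, Elf5, Cdx2 and Psg17, had 0 counts in all 8 libraries. Hand1, also used in heart and mesoderm, had 62 counts in wild type clusters replicate 1 and 244 in Sl/Sl clusters replicate 2, and Ascl2 had 15 to 35 counts in clusters and 0 or 1 in endothelium. The 10 trophoblast markers summed to 51.7 CPM in wild type clusters replicate 1, within the 7.16 to 210 CPM of the other cluster libraries, and to 356 to 702 CPM in endothelium, where Plac1 held nearly all. Skeletal muscle genes summed to 42.5 CPM in wild type clusters replicate 1, the lowest of the 8 libraries, and to 1080 CPM in Sl/Sl clusters replicate 2. Erythroid genes summed to 68.3 CPM in wild type clusters replicate 1 against 24.4 to 266 CPM elsewhere. The 12 macrophage, 12 endothelial and 12 hematopoietic genes summed to 938, 1371 and 1781 CPM there, and to 712 to 1270, 476 to 3467 and 1852 to 2630 CPM in the other 3 cluster libraries. Their part in the counts of the germ cell genes was not tested.

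The genes whose pattern was most like that of the 10 were found by correlating log2 CPM with the mean of the 10 over the 8 libraries. Among 12071 genes with at least 100 counts in some library, 19 had a Pearson's r above 0.95, and among the first 10 were Stk31, AU015836, Tcl1, Zscan5b, I830012O16Rik, Gm9733, Slfn4, Lefty2 and Gm6083, at 0.990 to 0.987. All points share the same 8 libraries, and in effect 1 library sets the correlation, since each of these genes had 106 to 269 counts in wild type clusters replicate 1 and 0 or 1 elsewhere. Lefty2, a secreted inhibitor of Nodal, had 234 counts there and 1 in Sl/Sl clusters replicate 1. Of the 10 genes themselves, Dppa3 had an r of 0.991 with the mean and Dppa5a 0.94, whereas Ddx4 had 0.37 and Nanos3 −0.31.

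The 10 genes were next compared between genotypes and cell types over libraries other than wild type clusters replicate 1. The filter on low counts kept 4 of the 10, Dppa5a, Nanog, Ddx4 and Nanos3, in the fit of all 8 libraries. Dppa5a and Nanog passed it through wild type clusters replicate 1 together with 1 other library each, so that no result is given for them from that fit. Since that library also enters the spread estimated there, both comparisons below that use the 8 libraries were refitted without it, which was decided after seeing the data. Without it the filter kept Nanog, Ddx4 and Nanos3, and Nanog passed through wild type clusters replicate 2 alone. In clusters as a whole, edgeR's quasi-likelihood test called 0 of 13908 genes (0%) between Sl/Sl and wild type at an adjusted p under 0.1, with 587 genes at an unadjusted p under 0.05 and 155 called by DESeq2. For the 10 genes nothing is taken from that comparison.

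With wild type clusters replicate 1 left out, Sl/Sl clusters were compared with wild type clusters replicate 2 alone, which was assumed to vary like the other groups. In this fit 76 of 15046 genes passed (0.505%), and Ddx4 and Nanos3 were not among them. Nanos3 differed by a log2 fold change of 0.73 ± 2.15 (SE) and Ddx4 by −2.24 ± 2.77, each with an adjusted p of 1 in edgeR. The value of Ddx4 was −1.32 without Sl/Sl clusters replicate 1 and −5.42 without Sl/Sl clusters replicate 2. These errors leave room for changes of several fold in either direction. Nanog had 19 counts in wild type clusters replicate 2 against 5 and 8 in Sl/Sl clusters. The other 7 genes had 0 or 1 count in wild type clusters replicate 2 and 0 to 3 in Sl/Sl clusters, so that no difference was detectable at this depth.

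Between Sl/Sl and wild type endothelium 0 of 13908 genes passed (0%), with 580 at an unadjusted p under 0.05 and 119 called by DESeq2. Nanos3, the 1 gene of the 10 with more than 8 counts in any endothelial library, had a log2 fold change of −1.63 ± 1.58 (SE) in Sl/Sl, with an adjusted p of 1 in edgeR. It was −0.82 without Sl/Sl endothelium replicate 2 and −3.67 without Sl/Sl endothelium replicate 1. With wild type clusters replicate 1 left out of the fit it was −1.63 ± 1.74, again with an adjusted p of 1 in edgeR, and 1 of 15046 genes passed.

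The last comparison, Sl/Sl clusters against Sl/Sl endothelium, used only embryos without Kitl. It called 393 of 13908 genes (2.83%), 256 higher and 137 lower in clusters, and 633 of 15046 (4.21%) with wild type clusters replicate 1 left out of the fit. Kit was among the higher ones, with a log2 fold change of 1.83 ± 0.29 (SE) and an adjusted p of 0.0186 in edgeR. Ddx4, with 4 and 83 counts against 1 and 0, had a log2 fold change of 5.74 ± 2.74 (SE) and an adjusted p of 0.386 in edgeR. The fold change was 5.74 ± 2.97 without wild type clusters replicate 1. Ddx4 passed the filter on low counts through cluster libraries alone, the side where its counts were high. Its direction was thereby set beforehand, and 83 of its counts came from 1 library. Nothing is therefore read from its fold change or p here beyond the counts. Nanos3 had a log2 fold change of 0.68 ± 1.55 (SE) with an adjusted p of 0.903 in edgeR, and of 0.923 without wild type clusters replicate 1. The fold change was −0.11 without Sl/Sl endothelium replicate 2, which had 6 counts, and 2.75 without Sl/Sl endothelium replicate 1.

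The 58 other germ cell genes gave 0 edgeR calls in each of the 4 comparisons, with 23 of them tested in the 8 libraries and 27 in the 7. At an unadjusted p under 0.05 there were 1, 1 and 1 of them in the genotype comparisons of clusters, of endothelium and of clusters without wild type replicate 1, and 4 between Sl/Sl clusters and Sl/Sl endothelium, where 1997 of all 13908 genes had such a p. DESeq2 called 4 in the last of these, among 1419 genes in all, Tfcp2l1, Prdm1, Klf4 and Gdf3, and 1, Sall4, in clusters without wild type replicate 1. It called 0 in the other 2 comparisons. Between Sl/Sl clusters and Sl/Sl endothelium, Gdf3 was higher in clusters, with 69 and 40 counts against 1 and 1. Prdm1 was higher in endothelium, with 29 and 87 counts in clusters against 243 and 225. Klf4 was also higher there, with 302 and 156 against 968 and 391. Tfcp2l1 had 0 and 0 counts in clusters against 0 and 198, so that 1 endothelial library held it. In endothelium the median log2 fold change of the 23 was −0.32, beside −0.0014 over all genes. That median was the value of Trim71, which had an SE of 1.68. Between Sl/Sl clusters and Sl/Sl endothelium the median of the 23 was 0.033, beside 0.066 over all genes. For the 27 in clusters without wild type replicate 1 it was 0, beside 0.087.

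Other lists were read from the same fits. Between Sl/Sl clusters and Sl/Sl endothelium edgeR called Ifitm1 and Kit among the shared surface genes, Actc1 among muscle genes, 4 of 12 macrophage and 9 of 12 hematopoietic genes, all higher in clusters, and 0 erythroid, endothelial, trophoblast, gonadal somatic or other Rhox genes. In clusters without wild type replicate 1, Plac1 and the endothelial genes Gja4 and Kdr were among those higher in Sl/Sl. Wild type was then replicate 2 alone, where the 12 endothelial genes summed to 476 CPM, against 1371 CPM in replicate 1. With both wild type cluster libraries, edgeR called 0 of these 12 genes. The smallest p that exact permutation of 2 against 2 libraries allows is 0.333, and the calls therefore use a spread pooled over genes.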

How the data were processed

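RNA-Seq was performed on 8 samples of 100 sorted cells. The authors made SMARTSEQ2 libraries, sequenced 75 bp read pairs, aligned them to NCBI37/mm9 with STAR v2.4.2a and merged the lanes of each sample. The deposited table holds unnormalized counts of reads on genes from featureCounts (Subread v1.4.5), with exon coordinates and lengths. Per the submitters' notes DESeq2 v1.12.4 was also used. The annotation, strand setting, multi-mapping and pair counting are not given in the sources used here. No molecular identifiers were attached, so limits from counts cover counting error only, and the limit of a count of 0 was set at 3 counts.

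Counts were tested with edgeR 4.0.16 (limma 3.58.1, R 4.3.3): TMM factors, filterByExpr on the 4 groups, quasi-likelihood tests, Benjamini-Hochberg adjustment over all genes, threshold 0.1. DESeq2 1.42.0 was an alternative, as were RLE factors, other filters, a threshold of 0.05, 2 groups alone, a replicate block and leaving out each library. The scripts were checked on simulated data. P-values set differences against the spread between these libraries, pooled over genes and groups. The SE given with a fold change is approximate and was derived from its edgeR test. It is the absolute log2 fold change over the square root of the quasi-likelihood F statistic. CPM used TMM-scaled totals, RPKM plain totals. Of 153 list genes 152 were matched, 1 under an older symbol. Dates had replaced 27 gene names, which were kept in the tests but not named. All 216686 exons checked lay within NCBIM37 chromosomes.

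The 10 genes, the lists and the tests were chosen with earlier results of these data known. Named genes were the 10, up to 5 per list with the most counts in wild type clusters replicate 1, sort markers, and the 10 genes most like them over the libraries, of which 1 is not reported here.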

Additional observations from a re-analysis of the deposited data

How the results depend on the processing

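Ddx4 and Nanos3 were called neither in the comparisons given for them nor in any of the 32 alternatives run on those. For some of these alternatives that was fixed in advance. The filter of at least 10 counts in every library drops both genes. Ddx4 had 0 counts in wild type endothelium replicate 1, and Nanos3 had 6 in Sl/Sl endothelium replicate 2. The stricter threshold on the adjusted p can only remove calls. Neither setting is therefore a check on these genes, although both are counted as kept for them below. Of 166 alternatives in all, 130 kept their direction and side of the threshold, or for counts and summed levels stayed within 1.5 times or 1 SD between replicates, 35 moved a count and 1 turned a direction, and for these the cause was not tested. For summed levels in wild type clusters the SD was wide, since the replicates had 449 and 19.0 CPM. The fall to 174 CPM in replicate 1 without Dppa5a was therefore still counted as kept. Fold changes that kept their direction still moved in size, as given beside each. The turned value was Nanos3 between Sl/Sl clusters and Sl/Sl endothelium, at a log2 fold change of −0.11 without Sl/Sl endothelium replicate 2, and leaving out 1 library at a time gave −0.11 to 2.75.

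Calls over all genes between Sl/Sl and wild type clusters were 0, and 253 with every gene of at least 1 count, 9 with at least 10 counts in every library, 155 with DESeq2 and 8 with the replicate block. Leaving out 1 library gave 6 to 76, the most without wild type clusters replicate 1, and 6, 12 and 36 without wild type clusters replicate 2, Sl/Sl clusters replicate 1 and Sl/Sl clusters replicate 2. In endothelium the 0 calls became 65, 119 and 2 with no filter, DESeq2 and the 2 groups alone, and 0 to 1 when 1 library was left out, with 1 without wild type clusters replicate 1. The 393 calls between Sl/Sl cell types became 1266, 1419, 211 and 222 with no filter, DESeq2, the 2 groups alone and a threshold of 0.05, and 182 to 633 when 1 library was left out, with 633 without wild type clusters replicate 1, 182 without Sl/Sl clusters replicate 2 and 242 without Sl/Sl endothelium replicate 1. Same-numbered replicates correlated at −0.11 to 0.16 in their deviations, with the highest value between wild type clusters and Sl/Sl clusters. The numbers were therefore not taken to pair the libraries, and whether a number marks one of the 2 sorts is not given. The block changed no call of Ddx4 or Nanos3. Leaving wild type clusters replicate 1 out of the comparisons that do not involve it was chosen after seeing the data.

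Genes held by 1 library numbered 123, 106, 60, 280, 75, 48, 69 and 64 with at least 20 counts in place of 50, with clusters before endothelium, wild type before Sl/Sl within each, and replicate 1 before 2. With 0 counts elsewhere they numbered 33, 11, 3, 56, 28, 8, 17 and 12. Leaving out wild type clusters replicate 2 from its comparison, and fitting that comparison on 2 groups alone, were not run, because no wild type library or too few libraries would be left. The 2 libraries of 100 cells per group, with a common dispersion of 0.667, limit every comparison of these genes.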

Other observations

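Genes of other kinds were also held by wild type clusters replicate 1 alone, by the same measure of at least 50 counts there and at most 3 elsewhere. Among the 54 were genes known from myeloid cells, Slfn4 with 269 counts, Il1rn with 194, Mmp8 with 103 and Clec4n with 81, each with at most 3 counts in any other library. Nefh, a neurofilament gene, had 91 counts in that library and 0 elsewhere. Hbb-bh1, an embryonic globin, had 695 counts there and 15 to 189 in the other 7 libraries. These genes were picked out after their values were seen.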
